A study of Homo sapiens with 12 samples.

Results

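Cytokinesis genes encode the proteins that split a cell after its chromosomes have parted. The 8 members are ECT2, RACGAP1, PRC1, ANLN, DIAPH3, ARHGAP11A, CEP55 and CIT. They were chosen by function, with earlier results of these data known. Their values were read from probe sets annotated to a member and to no other gene. Of the 8 members, 7 were measured in this way, among 9130 measured genes. They had 12 such probe sets, of which 10 reached a log2 signal of at least 5 on at least 2 arrays. CIT, a kinase that holds the midbody together, had 2 probe sets that are also annotated to MIR1178, so no value is given for it.

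HCT116, a human colorectal carcinoma cell line, was synchronized with a double thymidine block, which stops cells as they enter S phase. All 12 cultures had 19 h in 2 mM thymidine, 9 h in normal medium and 16 h in 2 mM thymidine. They were then washed and given DMSO, the vehicle, for 0, 2 or 4 h or for each hour from 6 to 10, or nocodazole, labelled as 0.1 mg/ml, for each hour from 7 to 10. Each of the 12 conditions was measured on 1 Affymetrix U133 Plus 2.0 array. There were no replicates, so neighbouring hours stand in for them in every standard error (SE) and p below, and the number of arrays limits the precision.

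During anaphase, microtubules bundle between the separating chromosomes into the central spindle, which sets the place of the cleavage furrow. A ring of actin and myosin then pulls the membrane in, and the last bridge between the daughters, the midbody, is cut by the ESCRT machinery. Nocodazole depolymerizes microtubules and holds cells in mitosis, before this sequence begins. Many genes of mitosis and cytokinesis carry a CHR element (TTTGAA) or CCAAT boxes near their start site.

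The promoters were searched for these motifs because 6 of the 7 measured members had their highest DMSO signal at 6 or 7 h. Whether the motifs bear on that timing was not tested. The RefSeq table (GRCh38.p14) held 9 windows of 300 bases, from 250 before to 50 after a start, for 7 of the 8 members, with no entry for RACGAP1. TTTGAA, on either strand, was in 6 of the 9 windows and in 5 of the 7 members (ANLN, CEP55, CIT, ECT2 and PRC1), and in 15.2% of all 35116 windows. CCAAT, on either strand, was in 5 of the 9 windows (CEP55, CIT, DIAPH3, ECT2 and PRC1) and in 34.6% of all windows. An E2F motif (TTTGGCGC, TTTCCCGC, TTTCGCGC or TTTGCCGC, on either strand) was in 0 of the 9 windows and in 3.31% of all windows. The motifs TTTGAA and CCAAT share no letters in any member's window, and both ECT2 windows overlap. A match describes letters and not a bound site.

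The stretches below are the 100 bases before the start for ANLN and PRC1, which have TTTGAA close to the start, for ECT2, which has CCAAT boxes in this stretch, and for ARHGAP11A, which had neither motif in its window. For CEP55, 24 bases around the TTTGAA match that spans the start are shown. Capitals mark TTTGAA and CCAAT or their reverse complements, and each sequence runs 5′ to 3′ on the gene's strand.
ANLN, chr7:36389762-36389861, plus strand: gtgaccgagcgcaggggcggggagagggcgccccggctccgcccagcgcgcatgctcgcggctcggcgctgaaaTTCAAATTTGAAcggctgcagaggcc
PRC1, chr15:90994536-90994635, minus strand: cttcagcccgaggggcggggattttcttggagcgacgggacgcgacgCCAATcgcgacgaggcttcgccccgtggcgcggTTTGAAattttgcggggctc
ECT2, chr3:172750626-172750725, plus strand: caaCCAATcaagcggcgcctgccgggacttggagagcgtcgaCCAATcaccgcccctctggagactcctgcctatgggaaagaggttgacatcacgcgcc
CEP55, chr10:93496600-93496623, plus strand: gccgcgggaTTCAAActcccggaa
ARHGAP11A, chr15:32615044-32615143, plus strand: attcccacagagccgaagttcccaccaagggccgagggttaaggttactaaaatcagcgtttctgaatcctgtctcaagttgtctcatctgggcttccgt
In ANLN both orientations of TTTGAA lie end to end, with first bases at -26 and -20 from the start. In PRC1 the first base of TTTGAA is at -20 and that of CCAAT at -53. ECT2 has CCAAT at -97 and -58 and a further one at -2, which crosses the start and is therefore left in lower case where the stretch ends. It has TTTGAA at -115, outside the stretch shown, and at 35 after the start.

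The arrays were those of an epithelial line, since EPCAM, KRT8, KRT18, KRT19 and CDH1 had log2 signals of 10.39 to 14.83 on all 12 arrays. PTPRC, COL3A1, PECAM1 and HBB were at 4.87 or lower, while COL1A1 was at 7.75 to 8.60. The median over all genes was 9.12 to 9.56 on the DMSO arrays. With nocodazole it was 9.32, 9.41, 8.88 and 8.76 at 7, 8, 9 and 10 h, lower at the late hours than on any DMSO array. The mean signal of 3 probe sets for the rRNA of the small ribosomal subunit was 8.32 at 4 h with DMSO and 3.55 to 4.05 on the other arrays. An array of a whole culture cannot tell fewer cells of a type from less RNA per cell.

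Among the genes that place the furrow, ECT2 is a guanine nucleotide exchange factor needed for it to form. Its log2 signal with DMSO was 12.04, 12.61, 12.73, 13.04, 12.85, 12.88, 12.56 and 12.30 at 0, 2 and 4 h and at each hour from 6 to 10. With nocodazole it was 12.85, 12.61, 12.83 and 12.54 at 7, 8, 9 and 10 h. ECT2 was highest at 6 h and lowest at 0 h with DMSO, and the nocodazole arrays lay below the DMSO array at 7 and 8 h and above it at 9 and 10 h.

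RACGAP1 forms the centralspindlin complex with the kinesin KIF23 and binds ECT2. Its DMSO signals were 12.69, 12.97, 12.99, 13.41, 13.38, 13.35, 12.98 and 13.10, in the same order of hours. With nocodazole they were 13.37, 13.20, 13.47 and 13.26. The DMSO arrays at 6, 7 and 8 h were the highest of their series, and the nocodazole array at 9 h was above them all. Similar pseudogene copies of RACGAP1 exist, and their signal may be mixed in.

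PRC1 bundles the antiparallel microtubules of the central spindle. With DMSO it was at 12.51, 12.77, 13.02, 13.45, 13.41, 13.25, 13.06 and 13.22. With nocodazole they were 13.40, 13.31, 13.37 and 13.30. All 4 nocodazole arrays were above the DMSO arrays at 0 to 4 h and within the range of those at 6 to 8 h.

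ANLN, or anillin, is the scaffold that links actin, myosin and septins in the ring. Over the DMSO hours it was at 12.39, 12.68, 12.80, 13.17, 13.30, 13.28, 12.85 and 12.78. With nocodazole they were 13.36, 13.18, 13.33 and 13.29. The nocodazole arrays at 9 and 10 h remained near the highest DMSO value while the DMSO arrays of those hours were lower.

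DIAPH3 is a formin, which assembles unbranched actin filaments. DIAPH3 signals with DMSO were 10.59, 10.29, 9.99, 10.10, 9.96, 9.74, 9.74 and 10.01. With nocodazole they were 9.90, 10.02, 9.60 and 9.50. By its brightest probe set DIAPH3 ran against the other measured members, with its highest DMSO value at 0 h. As deposited, its nocodazole arrays at 9 and 10 h lay below every DMSO array. After quantile normalization they were at 9.92 and 9.91, above the DMSO arrays at 7 to 10 h.

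ARHGAP11A is a GTPase-activating protein. Signals with DMSO were 7.27, 7.44, 7.85, 8.71, 8.92, 8.50, 8.14 and 8.18. With nocodazole they were 8.74, 8.99, 7.67 and 8.30. By the brightest probe set of each gene it had the widest DMSO range of the 7, 1.66, and its nocodazole arrays were far apart, with that of 9 h below every DMSO array from 4 h on. ARHGAP11A has a near-identical copy, ARHGAP11B, and signal of both may be mixed.

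CEP55 brings the ESCRT machinery to the midbody. Its signals over the DMSO hours were 12.63, 12.86, 13.19, 13.65, 13.48, 13.29, 13.10 and 12.96. With nocodazole they were 13.65, 13.31, 13.54 and 13.32. From 6 h on, each later DMSO array was lower than the one before, and all 4 nocodazole arrays were above the DMSO array of the same hour.

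**Figure D1:**
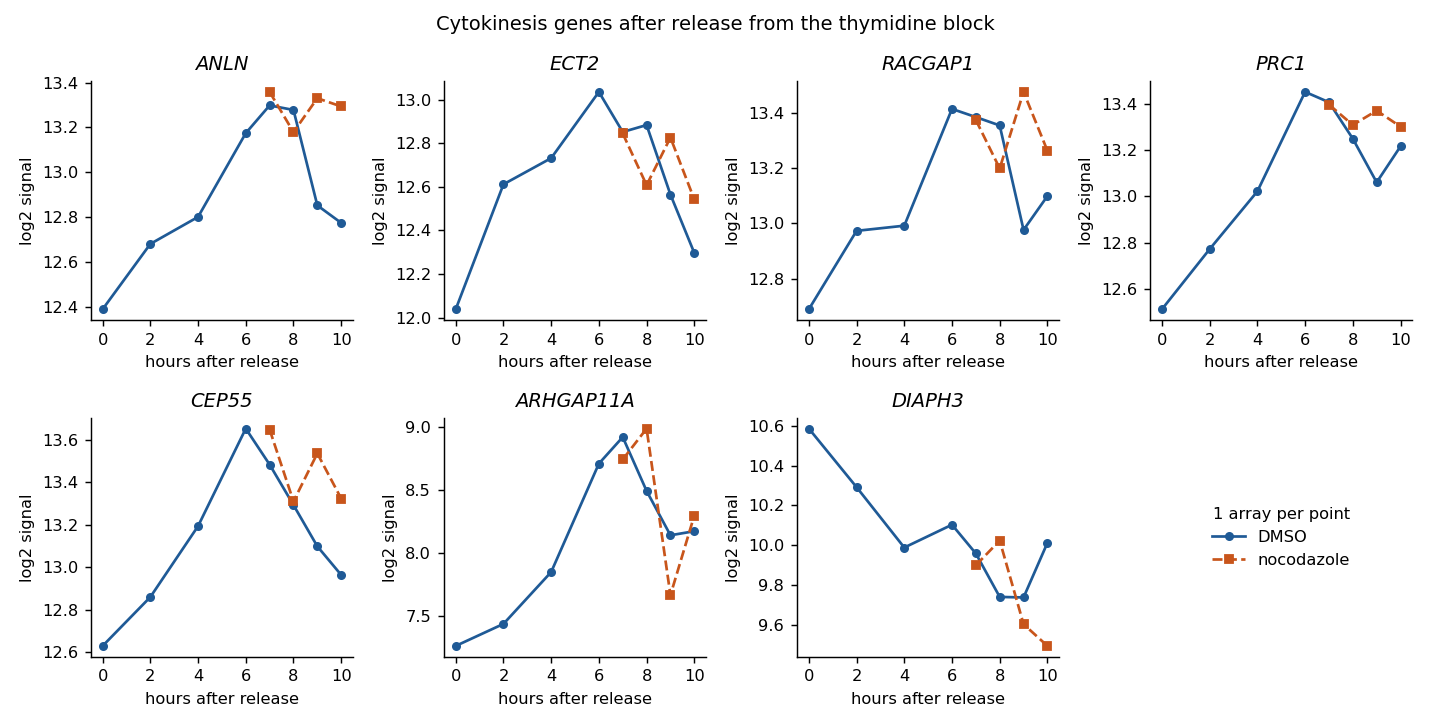
Log2 signal (vertical axis, a scale of its own for each gene) of the 7 measured members against hours after release, with 1 array per point, DMSO as solid lines with circles and nocodazole as dashed lines with squares. Each gene is drawn by its brightest probe set. The DMSO curves of 6 genes are highest at 6 or 7 h and lowest at 0 h, while DIAPH3 is highest at 0 h.

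The peak hour with DMSO was 6 h for ECT2, RACGAP1, PRC1 and CEP55, 7 h for ANLN and ARHGAP11A, and 0 h for DIAPH3. The gap between the highest and second highest hour was set against the SD of each gene around its fitted curve. This SD is the moderated estimate of limma, which is drawn toward that of genes of similar intensity. The gap was 0.020 for ANLN (0.182 SD), 0.029 for RACGAP1 (0.227 SD), 0.045 for PRC1 (0.349 SD) and 0.21 for ARHGAP11A (0.912 SD). The peak hours of these 4 genes are therefore not separated from their neighbours. The gap was 1.33 SD for ECT2, 1.41 SD for CEP55 and 1.76 SD for DIAPH3. After quantile normalization these gaps were 0.033, 1.16 and 2.89 SD. By a dimmer probe set, ECT2 and DIAPH3 both peaked at 7 h, with gaps of 0.390 and 0.570 SD. After quantile normalization the peak was at 8 h for ANLN, ECT2 and RACGAP1, 7 h for PRC1, 6 h for CEP55 and ARHGAP11A and 0 h for DIAPH3.

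Whether a gene varied over the DMSO hours was tested with limma, by a smooth curve of time fitted to the 8 DMSO arrays. At an adjusted p (Benjamini-Hochberg over all genes) under 0.05, 6 of the 7 members passed, beside 21.8% of all genes. The adjusted p was 0.00760 for ECT2, 0.00765 for ANLN, 0.00912 for CEP55, 0.0134 for ARHGAP11A, 0.0147 for PRC1 and 0.0443 for RACGAP1. DIAPH3 had an adjusted p of 0.0761, and of 0.00158 after quantile normalization. In that setting all 7 passed, beside 3665 of all 9130 genes in place of 1993. Without the array at 0 h, 1 member passed (CEP55), beside 862 of all genes.

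Levels at 6 to 8 h with DMSO were then compared with those at 0 to 4 h, with 3 arrays in each window. The windows were set by hours after release. ARHGAP11A rose by 1.19 on the log2 scale (SE 0.19, adjusted p = 0.0220), which is 2.28-fold. ANLN rose by 0.62 (SE 0.11, adjusted p = 0.0275), PRC1 by 0.60 (SE 0.13, adjusted p = 0.0389) and RACGAP1 by 0.50 (SE 0.10, adjusted p = 0.0324). In these 4 genes every array at 6 to 8 h was above every array at 0 to 4 h, which also held for CEP55 and ECT2. The share of all genes separated in this way was not counted, while 2274 of all 9130 had an unadjusted p under 0.05. CEP55 had a difference of 0.58 (SE 0.15, adjusted p = 0.0584), ECT2 of 0.46 (SE 0.18, adjusted p = 0.150) and DIAPH3 of -0.35 (SE 0.18, adjusted p = 0.262), none past the threshold.

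Thus 4 of the 7 members were higher and 0 lower, beside 5.41% of all genes higher and 0.635% lower. The median difference was 0.58 over the members and 0.058 over all genes. After quantile normalization the all-gene median was -0.10, 464 genes were higher and 420 lower in place of 494 and 58, and CEP55 was higher as well (0.61, adjusted p = 0.0392). With no filter on level, or without the array at 0, 2, 7 or 8 h, each in turn, 0 members passed, and without that at 9 h ANLN and ARHGAP11A passed. The calls over all genes fell too, to 65 with no filter, 134 without 0 h, 0 without 2, 7 or 8 h and 212 without 9 h. Without the array at 4 h, where that rRNA signal stood apart, 5 members passed.

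Probe sets of the same gene gave different values. The gene values above are those of the probe set with the highest mean. In ANLN the dimmer probe set (1552619_a_at) was at 10.65, 11.12 and 11.32 at 0, 2 and 4 h and at 12.05, 12.75 and 12.64 at 6, 7 and 8 h. It rose by 1.45 (SE 0.22, adjusted p = 0.0201 in a fit of all kept probe sets), against 0.62 for the brighter one (222608_s_at). Its values at 9 and 10 h were 12.37 and 12.37 with DMSO and 12.43 and 12.46 with nocodazole, so the gap between treatments seen in the brighter probe set was smaller here.

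In ECT2 the dimmer probe set (234992_x_at) was at 6.91, 7.30 and 7.92 at 0, 2 and 4 h and at 8.58, 9.07 and 9.00 at 6, 7 and 8 h. It rose by 1.51 (SE 0.26, adjusted p = 0.0249), while the brighter one (219787_s_at) had 0.46 (adjusted p = 0.141 in the same fit). At 9 and 10 h the dimmer one was at 8.72 and 8.86 with DMSO and at 8.60 and 8.49 with nocodazole. Its direction between treatments at those hours was thus opposite to that of the brighter one. A further ECT2 probe set (237241_at) was at 2.65 to 2.79 on all arrays and did not reach the filter.

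In DIAPH3 the brighter probe set (229097_at) had a difference of -0.35 and the dimmer one (232596_at) of 0.18 (SE 0.16, adjusted p = 0.489), so the sign depended on the probe set. The dimmer one was highest at 7 h with DMSO, at 7.69. The last DIAPH3 probe set (220997_s_at) was at 1.85 to 1.98 on all arrays. Probe sets whose names end in _x_at can also bind other transcripts, and those ending in _s_at bind several transcripts.

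**Figure D2:**
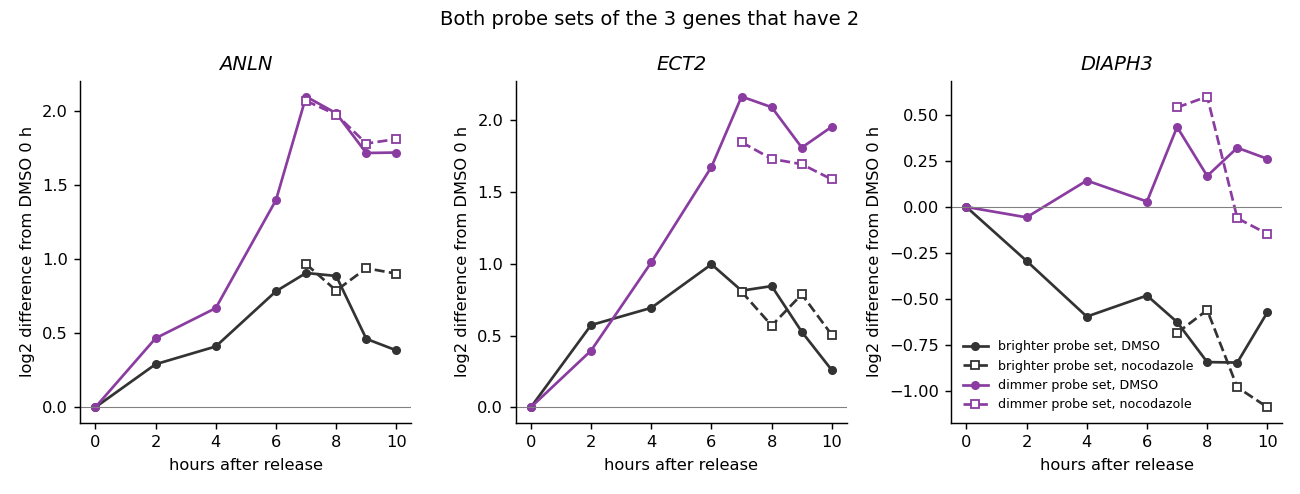
Log2 difference from DMSO 0 h (vertical axis) against hours after release for the 2 probe sets above the filter in ANLN, ECT2 and DIAPH3, with 1 array per point, DMSO as solid and nocodazole as dashed lines. In ANLN and ECT2 the dimmer probe set climbs further, by more than 2 at 7 h, and in DIAPH3 the probe sets part in direction.

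DMSO at 9 to 10 h was also compared with DMSO at 6 to 8 h. Here 0 of the 7 members and 0% of all genes passed, with 470 genes at an unadjusted p under 0.05. The differences were -0.55 (SE 0.21) for ARHGAP11A, -0.49 (SE 0.20) for ECT2, -0.45 (SE 0.17) for CEP55 and -0.44 (SE 0.13) for ANLN. They were -0.35 (SE 0.11) for RACGAP1, -0.23 (SE 0.15) for PRC1 and -0.059 (SE 0.20) for DIAPH3, which was at 0.011 with the mean of its probe sets. All 7 were below 0 by their brightest probe set, beside a median over all genes of 0.045, with adjusted p from 0.841 to 0.990. The 9 and 10 h arrays of ANLN, ECT2, RACGAP1, PRC1, CEP55 and ARHGAP11A were each below their 3 arrays at 6 to 8 h by the brightest probe set. This did not hold for the dimmer probe sets of ANLN and ECT2, whose arrays at 9 and 10 h were above that at 6 h. Their differences were -0.11 (SE 0.25) and -0.095 (SE 0.30). The share of all genes below 0, or with arrays separated as in the 6 genes, was not counted.

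Nocodazole was compared with DMSO at the same hour to ask how the genes stood in cells held before division. Over 7 to 10 h, with hour as a block, 0 of the 7 members and 0% of all genes passed, with 953 genes at an unadjusted p under 0.05. The largest differences were 0.24 (SE 0.093, adjusted p = 0.386) for CEP55 and 0.24 (SE 0.12, adjusted p = 0.386) for ANLN. The median over all genes was -0.22, and -0.0030 after quantile normalization.

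At 7 and 8 h the nocodazole arrays differed from the DMSO arrays by -0.28 to 0.49 over the 7 genes. At 9 h the difference was 0.50 for RACGAP1, 0.48 for ANLN, 0.44 for CEP55, 0.31 for PRC1 and 0.26 for ECT2, where the median of all genes was -0.25. At 10 h it was 0.52 for ANLN, 0.36 for CEP55, 0.25 for ECT2, 0.16 for RACGAP1 and 0.085 for PRC1, where the median of all genes was -0.61. By their brightest probe sets, these 5 genes were above the same-hour DMSO array at both late hours, while the dimmer one of ECT2 was below it at both. The share of all genes above that array at both late hours was not counted. DIAPH3 had differences of -0.13 and -0.52 at 9 and 10 h as deposited and of 0.26 and 0.24 after quantile normalization. ARHGAP11A had -0.47 and 0.12 as deposited and -0.031 and 0.94 after it.

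The change of the treatment difference from 7 and 8 h to 9 and 10 h was tested as an interaction. As deposited, 0 of the 7 members passed, beside 1.99% of all genes higher and 10.3% lower, and the median over all genes was -0.44. ANLN had the largest value of the 7, 0.52 (SE 0.18, adjusted p = 0.0753), which is 0.96 above the median of all genes, but its dimmer probe set had 0.096 (adjusted p = 0.721). RACGAP1 had 0.41 (SE 0.19, adjusted p = 0.145), ECT2 0.39 (SE 0.20, adjusted p = 0.172), with 0.098 (adjusted p = 0.834) for its dimmer probe set, and CEP55 0.31 (SE 0.18, adjusted p = 0.231). After quantile normalization the all-gene median was 0.0082 and these 4 were higher by their brightest probe sets, ANLN by 0.62 (adjusted p = 0.0258), ECT2 by 0.59 (adjusted p = 0.0383), RACGAP1 by 0.51 (adjusted p = 0.0189) and CEP55 by 0.41 (adjusted p = 0.0422). In that setting 372 genes were higher and 347 lower, in place of 182 and 940. Without the arrays at 9 h ANLN and ECT2 passed as deposited, with 4047 of all genes, and without those at 10 h ANLN and RACGAP1, with 297 of all genes.

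**Figure D3:**
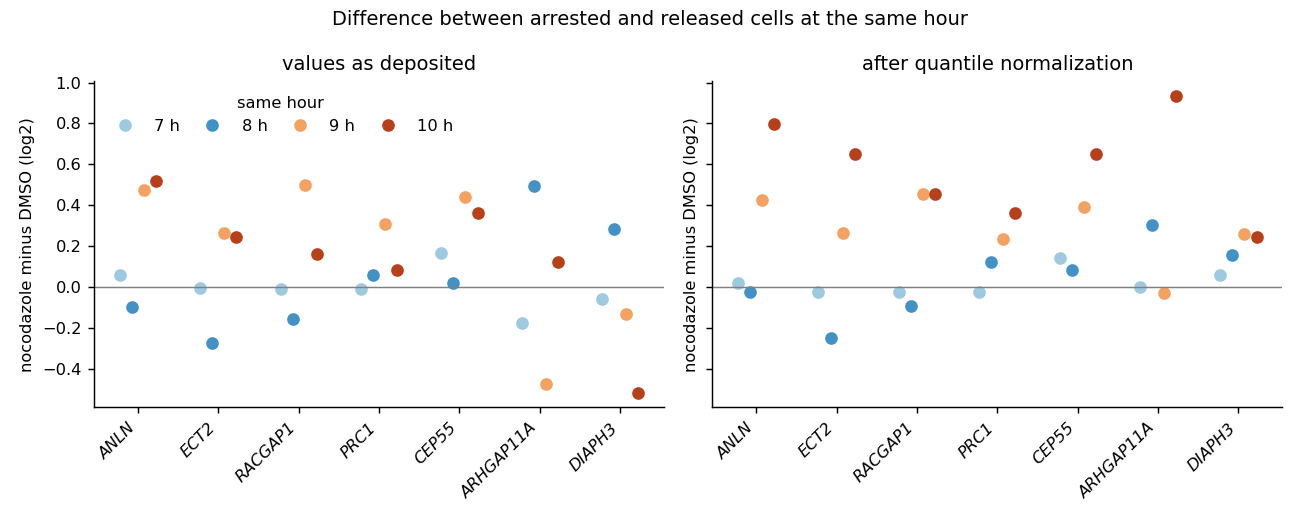
Nocodazole minus DMSO at the same hour (log2, vertical axis) for the 7 measured members, as deposited on the left and after quantile normalization on the right, with 1 point per hour and 1 array per treatment behind each side of a difference. Each gene is drawn by its brightest probe set, and the dimmer one of ECT2, not drawn, was below DMSO at 9 and 10 h as deposited. ANLN, ECT2, RACGAP1, PRC1 and CEP55 lie above 0 at 9 and 10 h in both panels. DIAPH3 at those hours lies below 0 on the left and above 0 on the right.

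The level at 9 to 10 h with nocodazole was set against both DMSO windows, which share these 2 nocodazole arrays. Against DMSO at 0 to 4 h, ANLN rose by 0.69 (SE 0.12, adjusted p = 0.00116), PRC1 by 0.57 (SE 0.13, adjusted p = 0.00597), CEP55 by 0.54 (SE 0.17, adjusted p = 0.0257) and RACGAP1 by 0.48 (SE 0.11, adjusted p = 0.00544). DIAPH3 fell by 0.74 (SE 0.18, adjusted p = 0.00770), and by 0.44 after quantile normalization (adjusted p = 0.0473), but its dimmer probe set had -0.13 (SE 0.16, adjusted p = 0.561). Both nocodazole arrays lay above all 3 early DMSO arrays in the first 4 genes and below them in DIAPH3, by the brightest probe sets. How many of all genes were separated in this way was not counted, and 4530 of all 9130 had an unadjusted p under 0.05. ARHGAP11A had 0.46 (SE 0.23, adjusted p = 0.132), and 0.70 after quantile normalization (adjusted p = 0.0328). ECT2 had 0.22 (SE 0.19, adjusted p = 0.376), while its dimmer probe set was higher by 1.17 (SE 0.26, adjusted p = 0.00644).

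Thus 4 of the 7 members were higher and 1 was lower, beside 7.85% of all genes higher and 33.6% lower. The median was 0.48 over the members and -0.23 over all genes. After quantile normalization 6 members passed, and 1406 genes were higher and 2269 lower in place of 717 and 3069. Without the nocodazole array at 10 h, 3 members passed (ANLN, RACGAP1 and PRC1).

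Against DMSO at 6 to 8 h, 0 of the 7 members were higher and 1 was lower, beside 3.69% of all genes higher and 38.8% lower. ANLN differed by 0.062 (SE 0.12), RACGAP1 by -0.015 (SE 0.11), PRC1 by -0.033 (SE 0.13) and CEP55 by -0.047 (SE 0.17), with adjusted p from 0.692 to 0.921. The all-gene median was -0.37. After quantile normalization it was -0.013, with 878 genes higher and 981 lower in place of 337 and 3547. ECT2 had -0.24 (SE 0.19, adjusted p = 0.323) and DIAPH3 -0.38 (SE 0.18, adjusted p = 0.107). ARHGAP11A fell by 0.72 (SE 0.23, adjusted p = 0.0277), but had -0.19 after quantile normalization (adjusted p = 0.597), and it did not pass without the DMSO array at 6 or 7 h or the nocodazole array at 9 h.

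On a scale where 0 is a gene's lowest and 1 its highest DMSO value, the mean over the 4 nocodazole arrays was 0.991 for ANLN, 0.886 for PRC1, 0.881 for RACGAP1 and 0.806 for CEP55. It was 0.700 for ARHGAP11A, 0.669 for ECT2 and 0.0205 for DIAPH3, whose dimmer probe set gave 0.590. At 9 h RACGAP1 stood at 1.08 and ANLN at 1.04, both above every DMSO array, and at 10 h they stood at 0.791 and 0.995. After quantile normalization the means were 1.02 for ANLN, 0.966 for RACGAP1, 0.937 for CEP55, 0.882 for ARHGAP11A, 0.828 for ECT2 and 0.208 for DIAPH3, with PRC1 level with its highest DMSO value.

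Genes that work beside the members were counted by stage, over the same DMSO windows of 6 to 8 h and 0 to 4 h. Of 10 genes of the central spindle and its kinases, 7 were higher and 0 lower, beside 5.41% and 0.635% of all genes, with a median difference of 1.06. Of the 10, 1 passed with no level filter, 0 without the array at 2, 7 or 8 h, 3 without that at 9 h and 4 without that at 0 or 10 h. PLK1, the kinase that licenses ECT2 to bind RACGAP1, rose by 2.30 (SE 0.38, adjusted p = 0.0220) from 8.22, 9.12 and 10.04 at 0, 2 and 4 h to 11.18, 11.62 and 11.48 at 6, 7 and 8 h. KIF20A, a kinesin that carries PLK1 to the central spindle, rose by 1.96 (SE 0.33, adjusted p = 0.0239). KIF20B, a kinesin of late cytokinesis, rose by 1.07 (SE 0.12, adjusted p = 0.0184), and CDCA8, a subunit of the chromosomal passenger complex, by 1.05 (SE 0.20, adjusted p = 0.0296).

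Of 7 septins, filament proteins that bind anillin, 0 passed, with a median of 0.041, beside 5.41% of all genes higher and 0.635% lower. SEPTIN9 had 0.16 (SE 0.10, adjusted p = 0.360) and SEPTIN7 -0.17 (SE 0.15, adjusted p = 0.487).

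Of 20 measured genes of abscission, which include the ESCRT subunits that cut the midbody, 1 was higher and 0 lower, with a median of -0.046. Over all genes 5.41% were higher and 0.635% lower, so 1 of 20 is near the share of all genes. The gene that passed was BIRC6, a large ubiquitin ligase of the midbody, which rose by 1.14 (SE 0.25, adjusted p = 0.0374). With no filter, or without any 1 DMSO array other than that at 6 h, 0 passed, and without that at 6 h 2 passed. After quantile normalization 4 passed, with BIRC6 higher and the ESCRT genes CHMP4C (-0.68, adjusted p = 0.0495), TSG101 (-0.43, adjusted p = 0.0478) and CHMP5 (-0.42, adjusted p = 0.0313) lower. The names of these 3 were chosen after their values were seen. Over all 9130 genes, 464 were higher and 420 lower after quantile normalization. At 9 to 10 h with nocodazole against DMSO at 0 to 4 h, 6 of the 10 central spindle genes were higher and 0 lower. In that comparison 1 of 7 septins was lower, and of 20 abscission genes 1 was higher and 11 were lower. Over all genes 7.85% were higher and 33.6% lower. After quantile normalization 9, 2 and 6 genes of these lists passed in either direction, beside 1406 of all 9130 genes higher and 2269 lower.

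**Figure D4:**
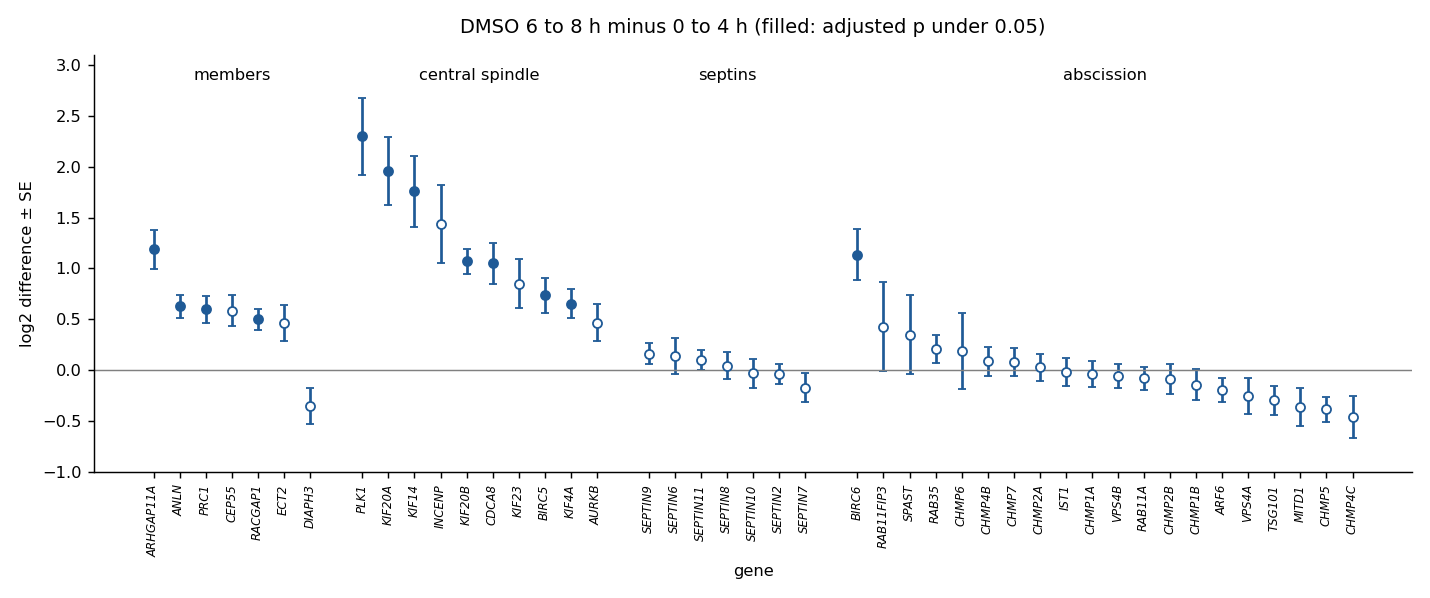
Log2 difference between DMSO 6 to 8 h and 0 to 4 h (vertical axis, with SE bars from limma on 8 arrays) for the 7 measured members and for 3 groups of partner genes, with filled points for an adjusted p under 0.05. Filled points are found in 7 of 10 central spindle genes, 4 of 7 members and 1 of 20 abscission genes, and in none of the 7 septins.

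The likeness of the members' patterns was described by Pearson's r over the 12 arrays, which share their scaling and the order of hours. ANLN was closest to RACGAP1 (r = 0.948), PRC1 to RACGAP1 (0.929), CEP55 to RACGAP1 (0.920), ECT2 to CEP55 (0.862) and ARHGAP11A to PRC1 (0.802). For DIAPH3 the highest r with any member was -0.35, with ARHGAP11A. These r are for the brightest probe set of each gene, and the dimmer one of DIAPH3, highest at 7 h with DMSO, was not used. Over the 8 DMSO arrays alone, ARHGAP11A and PRC1 had r = 0.965.

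Among genes that are not members, those most like the members' mean standardized profile over the 12 arrays were FAM83D (r = 0.979), a spindle protein, KIF14 (0.976), a kinesin that binds PRC1 and citron kinase, BORA (0.974), an activator of Aurora A, PRR11 (0.970) and GPSM2 (0.968), a protein of spindle orientation. KIF14 is also one of the central spindle genes counted above. Its DMSO signals were 9.22, 10.04, 10.83, 11.86, 11.99, 11.50, 10.85 and 10.50, and with nocodazole it was at 11.97, 11.71, 11.33 and 11.11. As in ANLN and CEP55, the nocodazole arrays of KIF14 at 9 and 10 h were above the DMSO arrays of those hours. KIF14 was picked here by its r over the 12 arrays, which include those at 9 and 10 h. Its likeness to the members at those hours is therefore partly built into the choice and is no separate finding.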

How the data were processed

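RNA of 12 synchronized HCT116 cultures was hybridized to 1 Affymetrix U133 Plus 2.0 array each. The authors deposited 1 log2 signal per probe set and array, made with GC-RMA, whose version is not given. That the scale is log2 follows from the size of the signals. GC-RMA signals are relative, and a scaling that differs between arrays shifts all genes of an array.

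Probe sets were named through the platform annotation. Of 54675 probe sets, 41097 had 1 symbol, 1801 several and 11777 none. A probe set was kept if it had 1 symbol and reached a log2 signal of 5 on 2 or more arrays (15030 probe sets), and a gene was represented by its kept probe set with the highest mean, which gave 9130 genes. The members and all lists were chosen with earlier results of these data known.

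All genes were fitted with limma 3.58.1 (R 4.3.3). The variance prior followed the mean intensity, and p-values were adjusted by Benjamini-Hochberg over all genes. The DMSO course used a natural cubic spline with 3 degrees of freedom, window means shared 1 spread over the 8 DMSO arrays or, with nocodazole, over all 12 arrays, and same-hour comparisons had hour as a block. The scripts were tested on simulated data. Named genes were the members, of each partner list the 4 with the smallest p among those that passed in the DMSO 6 to 8 h comparison or else the 2 with the smallest p, and the 5 genes most like the members' mean profile. Alternatives were quantile normalization, no filter or one at 7, averaged probe sets, a variance prior without the intensity, a spline with 2 degrees of freedom, another spread, no hour block, 7 and 8 h or 9 and 10 h alone, and each time left out in turn. A fit of every kept probe set was added after seeing the data. A further partner list is not reported here. Promoter windows are those of RefSeq. Sequences and plots were handled with Python 3.11.15, pandas 2.3.3 and matplotlib 3.10.9.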

Additional observations from a re-analysis of the deposited data

How the results depend on the processing

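The labels carry no replicate numbers, so arrays were paired by hour alone, and without the hour block 0 members and 8 genes passed for nocodazole minus DMSO. The count of members that passed was 6 over the DMSO course, and 1 to 7 when each time was left out. For DMSO at 6 to 8 h against 0 to 4 h it was 4, but 0 with no level filter, 2 with no intensity trend, and 0 to 5 when each time was left out. For the change of the treatment difference it was 0, but 1 with no filter, 4 after quantile normalization and 0 to 2 when each hour was left out. For nocodazole at 9 to 10 h against DMSO at 6 to 8 h it was 1, but 0 after quantile normalization or with the arrays of both windows alone, and 0 to 1 when each array was left out. Against DMSO at 0 to 4 h it was 5, and 3 to 5 when each array was left out. The cause of these shifts was not tested. The other alternatives left each of these counts within 1.5 times.

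Over all genes, the number that passed was 1993 over the DMSO course and 3665 after quantile normalization. For DMSO 6 to 8 h it was 552, and 65 with no filter, 884 after quantile normalization, 1136 with the spread of all arrays and 1200 among probe sets. For the change of the treatment difference it was 1122, and 10073 with no filter, 1742 with the filter at 7, 719 after quantile normalization and 1714 with mean probe sets. For nocodazole at 9 to 10 h it was 3884 against DMSO at 6 to 8 h and 3786 against 0 to 4 h, and 13211 and 11989 with no filter, and 1859 for the former after quantile normalization. When each time, hour or array was left out, the number was 862 to 2220 over the course, 0 to 1266 for DMSO 6 to 8 h, 0 to 401 for nocodazole minus DMSO (401 without the arrays at 8 h, in place of 0), 297 to 4047 for its change, 1427 to 4097 against DMSO at 6 to 8 h and 2071 to 3997 against 0 to 4 h.

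Only differences that did not pass turned their sign. For DMSO at 9 to 10 h against 6 to 8 h, DIAPH3 had 0.011 with mean probe sets and -0.20 to 0.078 when each time was left out. For nocodazole minus DMSO, quantile normalization gave 0.18 for DIAPH3 and 0.30 for ARHGAP11A, and mean probe sets gave -0.12 for ECT2. The 7 and 8 h arrays alone gave -0.019 for ANLN, -0.14 for ECT2, -0.083 for RACGAP1, 0.11 for DIAPH3 and 0.16 for ARHGAP11A. Leaving out each hour gave -0.18 to 0.15 for ARHGAP11A, -0.012 to 0.17 for ECT2, -0.00064 to 0.22 for RACGAP1 and -0.24 to 0.030 for DIAPH3. The change of this difference was 0.14 for DIAPH3 and 0.30 for ARHGAP11A after quantile normalization, and -0.67 to 0.0023 for ARHGAP11A when each hour was left out. For nocodazole at 9 to 10 h against DMSO at 6 to 8 h, quantile normalization gave 0.060 for RACGAP1, 0.041 for PRC1, 0.036 for CEP55 and 0.093 for DIAPH3. Leaving out each array gave -0.12 to 0.091 for RACGAP1, -0.093 to 0.0078 for PRC1 and -0.15 to 0.060 for CEP55.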
